A study of Mus musculus with 7 samples.

Results

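The integrated stress response and the unfolded protein response were followed through 10 of their genes: the transcription factors Atf4, Atf3, Ddit3 and Xbp1, the pseudokinase Trib3, the amino acid enzymes Asns, Psat1 and Bcat1, the chaperone Hspa5 and the degradation factor Herpud1. They are 10 of 12393 genes named on the array, and every probe set annotated to them was taken, which gave 21 of 22690 probe sets, with 1 to 4 per gene. The 7 Affymetrix arrays held RNA of fibroblasts from mouse embryos, and every culture lacked the tumour suppressor p53. The p53-null cells (p53-/-) and the p53-Dnmt1-null cells (p53-/- Dnmt1-/-, also without the maintenance DNA methyltransferase Dnmt1) were each profiled untreated, at 24 h and at 48 h of trichostatin A (TSA, a histone deacetylase inhibitor). The p53-Dnmt1-null cells were profiled once more, 2 weeks after TSA was removed. Each of these 7 groups held 1 array, and no cells with p53 were among them.

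When amino acids run short or unfolded proteins build up in the endoplasmic reticulum (ER), kinases phosphorylate the initiation factor eIF2, most translation slows, and the mRNA of Atf4 is translated better. ATF4 protein then drives genes for amino acid synthesis, uptake and tRNA charging, and also Atf3, Ddit3 and Trib3. In the other arms of the ER response, spliced XBP1 and cleaved ATF6 drive chaperones such as Hspa5 and degradation genes such as Herpud1. Much of this control acts on translation, splicing or protein cleavage, which the probe sets do not measure.

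With TSA, most of these genes read lower than in untreated cells of the same genotype, and Bcat1 had the largest difference. For TSA averaged over genotypes limma called 0 of the 20 member probe sets tested (0.0143% of all 14012 tested probe sets). The p53-null array at 24 h was below the untreated one for 19 of the 20 (48.2% of all) and at 48 h for 13 (46.1%). The p53-Dnmt1-null array was below for 14 at 24 h (53.8%) and for 16 at 48 h (50.8%). On all 4 TSA arrays 9 of the 20 were below untreated (18.6%). At 48 h the p53-null signals of Ddit3, Trib3 and Herpud1 were back near or above untreated, while those of Bcat1, Asns and Psat1 stayed below it. Between genotypes, limma called probe sets of Atf3 and Hspa5 higher in p53-Dnmt1-null cells, where 17.6% of all tested probe sets were called. Probe sets of Ddit3, Trib3 and Bcat1 were called lower, where 19.3% were. The other probe sets of Hspa5 and Trib3 were not called. The calls of Ddit3, Trib3 and the dimmer Bcat1 probe set were lost under some settings. Atf3 was bright enough to be tested only on p53-Dnmt1-null arrays. At 2 weeks after TSA the array of p53-Dnmt1-null cells was the highest of the 7 for 11 of the 20 probe sets (25.4% of all tested probe sets were highest there) and the lowest for 2 of Xbp1 (29.2%).

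Values are MAS5 signals, scaled by the authors so that the trimmed mean of every array was the same, and array medians lay between 41.9 and 48.8. Dnmt1, the targeted gene, was lower in p53-Dnmt1-null cells by limma, by a log2 difference of -1.77 ± 0.21 (SE, 3 arrays per genotype, 1 at each time, adjusted p = 0.000281). Signal remained there, and the sources used here do not place its probes relative to the deletion. All 14 fibroblast markers exceeded the pooled median signal of 45.6 on some array, but their summed signal was 30276.7 to 39094.3 in p53-null cells, 13010.6 to 16238.5 in p53-Dnmt1-null cells and 9393.3 after TSA removal. Of 13 markers of surface epithelium and mesothelium, 12 passed that level, with sums in the same order of 190.3 to 493.3, 17039.7 to 21538.2 and 12775.8. Macrophage markers summed to 188.8 to 233.9, 407.6 to 514.1 and 263.6 in that order, with 4 of 10 above that level on some array, among them Csf1r, Itgb2 and Cd68, while Ptprc and Itgam never exceeded 11.9 and 9.9. The part of these markers in the genotype results below was not tested, and fewer cells of a type cannot be told apart from less RNA per cell.

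Upstream sequences are shown for the genes in which letters of a known stress element were found. Windows from 250 bases before to 50 bases after the annotated start were searched on both strands for the core of the C/EBP-ATF response element, TGATGNAA, which ATF4 binds, and for 2 ER stress elements. The first ER stress element is CCAAT followed after 9 unspecified bases by CCACG, and the second is ATTGG followed after 1 base by CCACG. All 10 genes matched a RefSeq entry (GRCm38.p6), in 12 windows. The ATF4 core was found in 4 of the 10 genes and in 3.97% of all 32851 windows. The first ER stress element was found in Hspa5 and in 0.119% of windows, and the second in Herpud1 and in 0.0365%. The 250 bases before the start follow, 5' to 3' on the gene's strand, with the elements in capitals. Atf3 lies at chr1:191183334-191183583 on the minus strand and Asns at chr6:7693210-7693459 on the minus strand. Hspa5 lies at chr2:34771840-34772089 and Herpud1 at chr8:94386179-94386428, both on the plus strand.
Atf3: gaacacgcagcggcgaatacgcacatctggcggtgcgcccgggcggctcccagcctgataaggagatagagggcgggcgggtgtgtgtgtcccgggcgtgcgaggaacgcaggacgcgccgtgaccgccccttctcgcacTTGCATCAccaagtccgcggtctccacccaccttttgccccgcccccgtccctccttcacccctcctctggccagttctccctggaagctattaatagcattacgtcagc
Asns: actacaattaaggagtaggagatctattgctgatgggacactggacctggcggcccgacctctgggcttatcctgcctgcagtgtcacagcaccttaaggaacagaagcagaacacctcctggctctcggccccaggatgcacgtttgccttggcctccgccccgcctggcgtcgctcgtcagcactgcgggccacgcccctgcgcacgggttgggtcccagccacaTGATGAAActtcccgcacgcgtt
Hspa5: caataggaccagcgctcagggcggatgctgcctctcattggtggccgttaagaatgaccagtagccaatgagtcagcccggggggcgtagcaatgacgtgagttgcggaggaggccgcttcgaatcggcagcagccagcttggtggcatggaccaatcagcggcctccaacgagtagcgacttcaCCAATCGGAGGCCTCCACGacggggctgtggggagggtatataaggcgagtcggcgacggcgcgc
Herpud1: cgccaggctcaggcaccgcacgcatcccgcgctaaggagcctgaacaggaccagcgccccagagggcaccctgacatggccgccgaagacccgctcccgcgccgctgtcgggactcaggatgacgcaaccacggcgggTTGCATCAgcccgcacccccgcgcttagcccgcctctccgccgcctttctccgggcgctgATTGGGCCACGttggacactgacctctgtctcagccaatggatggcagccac
In Atf3 and Herpud1 the ATF4 core reads on the opposite strand, at positions -110 to -103 and -112 to -105. In Asns it reads on the gene's strand at -23 to -16. The elements of Hspa5 and Herpud1 lie at -65 to -47 and at -52 to -42. Trib3 has its match after the start, at +15 to +22 (chr2:152344039-152344046), again on the opposite strand, shown here with its neighbours.
Trib3: ctcaggtTTACATCAgccgggc
These are matches of letters only, and occupancy and methylation of these windows were not measured. No match of these 3 patterns was found in the windows of Atf4, Ddit3, Bcat1, Xbp1 or Psat1.

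Atf4, the factor at the centre of the integrated stress response, had a signal of 1641.7 in untreated p53-null cells, 950.4 at 24 h and 1468.6 at 48 h of TSA. On the p53-Dnmt1-null arrays the same probe set read 2283.4, 1095.3 and 1368.0, and 2805.4 once TSA had been removed. In both genotypes the 24 h array was the lowest and the untreated array the highest of the 3. Averaged over genotypes, the TSA arrays differed from untreated by -0.68 ± 0.20 on the log2 scale (SE, 4 arrays against 2), which did not pass (limma adjusted p = 0.205). Without the 48 h arrays the difference was -0.92 ± 0.16 and passed (limma adjusted p = 0.0411), and over the settings tried the adjusted p ranged from 0.0411 to 0.362. A second probe set, whose name marks probes similar to other sequences, read 264.2, 187.3 and 237.6 on the p53-null arrays and 382.1, 245.8, 237.2 and 587.5 on those of p53-Dnmt1-null cells, the last after removal. The third stayed at 1.9 to 4.6 on all arrays and was the only member probe set to miss the filter.

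Atf3, a repressor and activator induced by many stresses, had the largest genotype difference of the members when averaged over 0, 24 and 48 h. Its p53-null signals were 24.3 untreated, 32.7 at 24 h and 40.4 at 48 h. The p53-Dnmt1-null signals were 157.8, 202.6 and 131.4, and 93.6 after removal. Atf3 was higher in p53-Dnmt1-null cells at 0, 24 and 48 h, as were 32.8% of all tested probe sets. The p53-null signals were all under the level of 45.6 required by the filter, so Atf3 was tested only because the p53-Dnmt1-null arrays exceeded it. It was higher in p53-Dnmt1-null cells by 2.00 ± 0.22 on the log2 scale (limma adjusted p = 0.000236). With TSA it read higher than untreated at both times in p53-null cells, where signals were dim, and at 24 h but not 48 h in p53-Dnmt1-null cells. The TSA difference averaged over genotypes was 0.23 ± 0.24 (limma adjusted p = 0.706).

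Ddit3, which encodes the pro-apoptotic factor CHOP, read 473.0 untreated, 253.6 at 24 h and 741.2 at 48 h on the p53-null arrays. Its p53-Dnmt1-null readings were 196.3, 235.2 and 112.2, and 170.6 after removal. Its course with time thus ran in opposite directions in the 2 genotypes, down and then up in p53-null cells and up and then down in p53-Dnmt1-null cells. The signal ratio of p53-Dnmt1-null to p53-null cells was 0.42 untreated, 0.93 at 24 h and 0.15 at 48 h. Ddit3 was lower in p53-Dnmt1-null cells by limma, with a log2 difference of -1.31 ± 0.39 (adjusted p = 0.0275). Without the 48 h arrays this was -0.66 ± 0.32 and did not pass (limma adjusted p = 0.175). The call was also lost at the same estimate without the filter (limma adjusted p = 0.0892) and without the intensity trend (0.0597), and over the settings tried the adjusted p ranged from 0.000328 to 0.175. The difference of the TSA response between genotypes, which pools both times, was -0.13 ± 0.87 (limma adjusted p = 0.995), and the course with time has 1 array per point and no test.

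Trib3, a pseudokinase that is induced by ATF4 and CHOP and restrains them, read 504.2, 203.8 and 442.0 at these times on the p53-null arrays. Where Dnmt1 was also missing it read 328.2, 156.8 and 121.0, and 515.7 after removal. Both genotypes were low at 24 h, and at 48 h the p53-null array was near its untreated level while the p53-Dnmt1-null array was at its lowest. This probe set was lower in p53-Dnmt1-null cells by -0.91 ± 0.27 (limma adjusted p = 0.0283). Without the 48 h arrays the value was -0.48 ± 0.27 and did not pass (limma adjusted p = 0.253). The call was also lost at the same estimate without the filter (limma adjusted p = 0.076) and without the intensity trend (0.0546), in a range of 0.00517 to 0.253 over the settings tried. The other probe set, with probes similar to other sequences, gave -0.12 ± 0.28 (limma adjusted p = 0.774). It read 176.8, 82.9 and 214.3 on the p53-null arrays and 178.3, 132.7, 103.9 and 354.4 on the p53-Dnmt1-null arrays, so the probe sets share the course with time but not the genotype call.

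**Figure D1:**
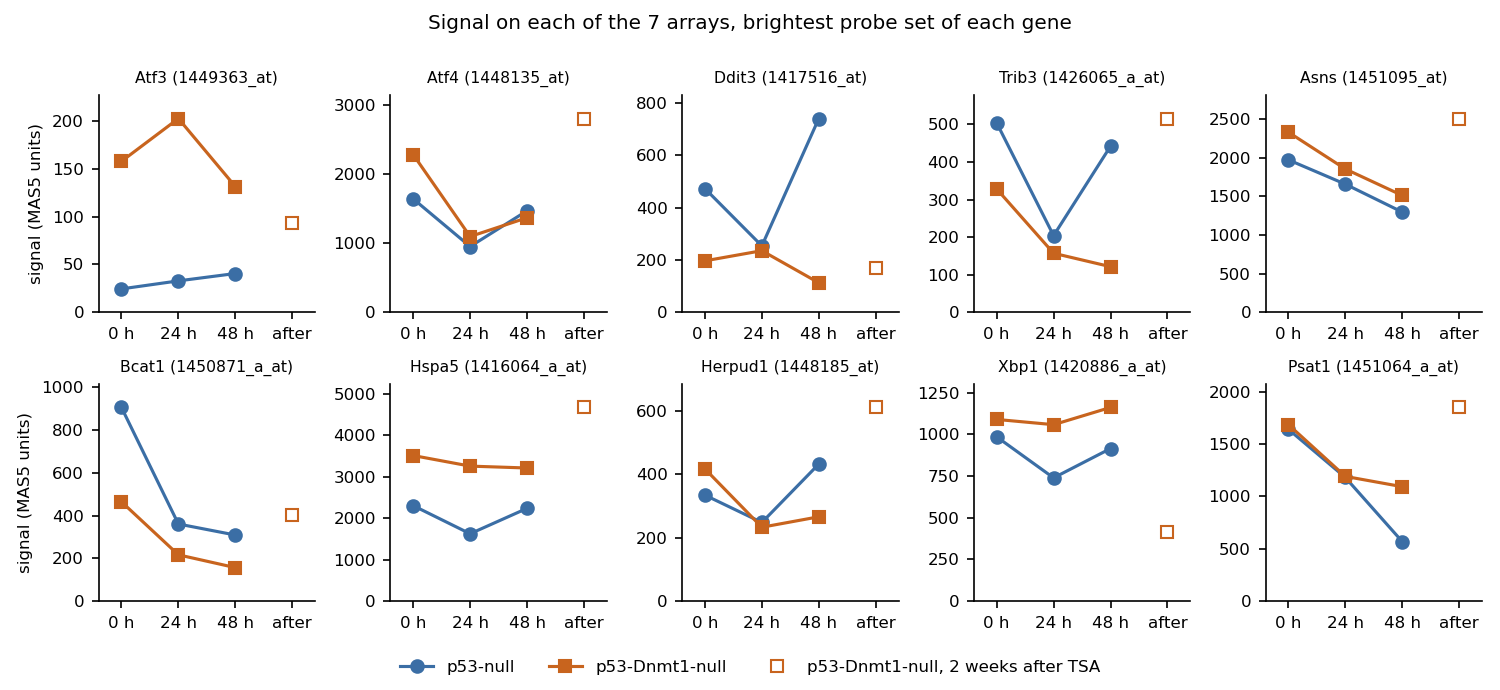
Signal in MAS5 units (vertical axes, each starting at 0) on each of the 7 arrays for the probe set of highest mean signal of each of the 10 genes; lines join 0, 24 and 48 h of TSA in p53-null (blue circles) and p53-Dnmt1-null cells (orange squares), the open square is the array 2 weeks after TSA, and each point is 1 array. Bcat1 is lower with TSA in both genotypes, the genotypes lie furthest apart at 48 h for Ddit3 and Trib3, and Xbp1 is at its lowest after TSA removal, at 413.9.

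Among the amino acid genes, Bcat1 had the largest TSA difference of the members. Bcat1 encodes the cytosolic aminotransferase of leucine, isoleucine and valine. Its brighter probe set read 905.8 untreated, 360.3 at 24 h and 308.8 at 48 h on the p53-null arrays. The p53-Dnmt1-null arrays read 464.3, 216.1 and 156.3, and 400.6 after removal. All 4 TSA arrays were below the untreated array of their genotype, at signal ratios of 0.40 (24 h) and 0.34 (48 h) without p53, and 0.47 and 0.34 without p53 and Dnmt1. The other probe set, also one that covers alternative transcripts, read 223.5, 63.2 and 65.9, then 107.7, 43.8 and 42.3, and 110.1 after removal, again with all 4 TSA arrays below untreated. The TSA differences averaged over genotypes were -1.35 ± 0.21 and -1.38 ± 0.21 on the log2 scale, the lowest p-values among the members, but neither passed over all probe sets (limma adjusted p = 0.0744 for both). Without the 24 h arrays both passed (limma adjusted p = 0.00763 and 0.0185), as they did without the p53-Dnmt1-null 24 h array alone (0.0303 and 0.0383). Over the settings tried the adjusted p ranged from 0.00763 to 0.252. The p53-Dnmt1-null 24 h array had the highest 18S ribosomal RNA control, 2549.1 at the 3' end against 93.6 to 1292.1 on the others.

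Bcat1 was also lower in p53-Dnmt1-null cells, by -0.86 ± 0.17 and -0.65 ± 0.20 (limma adjusted p = 0.00423 and 0.0332). Both probe sets were lower at 0, 24 and 48 h, as were 31.6% of all tested probe sets. The call of the dimmer probe set did not hold without the 48 h arrays (limma adjusted p = 0.114), without the untreated arrays (0.175) or without the filter (0.0841), in a range of 0.0304 to 0.175. The TSA response of Bcat1 differed between genotypes by 0.13 ± 0.46 and 0.50 ± 0.41 (limma adjusted p = 0.995 for both), intervals that leave room for a sizeable difference either way.

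Asns, which makes asparagine from aspartate and glutamine, had p53-null signals of 1974.0, 1658.6 and 1296.8. Its p53-Dnmt1-null signals were 2332.4, 1855.3 and 1512.2, and 2509.4 after removal. In both genotypes the order was untreated, 24 h, 48 h from high to low. The TSA difference averaged over genotypes was -0.45 ± 0.15 (limma adjusted p = 0.237). Its other probe set, with probes similar to other sequences, read 936.5, 666.3 and 532.7, then 806.6, 928.7 and 608.8, and 1535.4 after removal, so it was above untreated at 24 h in p53-Dnmt1-null cells.

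Psat1, the aminotransferase of the serine synthesis route, read 1640.0, 1179.7 and 567.1 on the p53-null arrays. On the p53-Dnmt1-null side it read 1684.7, 1190.0 and 1091.7, and 1848.6 after removal. The genotypes were alike untreated and at 24 h, with signal ratios of 1.03 and 1.01, and apart at 48 h, with a ratio of 1.93. The TSA difference averaged over genotypes was -0.78 ± 0.26 (limma adjusted p = 0.238), and without the 24 h arrays it was -1.07 ± 0.21 and passed (limma adjusted p = 0.0281, range 0.0281 to 0.403). The other probe set, which may match transcripts of several genes, read 787.8, 530.8 and 332.8, then 716.0, 663.2 and 511.3, and 1027.7 after removal. In both probe sets each genotype was lowest at 48 h.

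Hspa5 encodes BiP, the main ER chaperone and the reporter most used for the unfolded protein response. Its brighter probe set gave p53-null signals of 2301.6, 1623.3 and 2236.7. The p53-Dnmt1-null arrays gave 3510.9, 3255.4 and 3210.1, and 4671.8 after removal. This probe set was higher in p53-Dnmt1-null cells by 0.71 ± 0.11 on the log2 scale (limma adjusted p = 0.0015). It was higher at 0, 24 and 48 h, as were 32.8% of all tested probe sets. The other probe set, which may match transcripts of several genes, read 749.9, 430.5 and 739.1 against 800.7, 1016.4 and 875.0, with 1231.2 after removal. It differed by 0.52 ± 0.22 and did not pass (limma adjusted p = 0.0944), but passed without the untreated arrays at 0.73 ± 0.23 (limma adjusted p = 0.0341, range 0.0341 to 0.529). With TSA the brighter probe set gave -0.19 ± 0.14 averaged over genotypes (limma adjusted p = 0.575). The single low reading was the p53-null array at 24 h, where the probe sets stood at 0.71 and 0.57 of untreated.

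Herpud1, an ER membrane protein that helps assemble the degradation machinery for misfolded proteins, read 333.7, 247.5 and 431.6 on the p53-null arrays. Its p53-Dnmt1-null signals were 416.4, 232.5 and 265.4, and 610.0 after removal. Its other probe set read 398.0, 192.0 and 470.8, then 460.3, 194.8 and 270.4, and 369.6 after removal. In both probe sets the 24 h array was the lowest of each genotype, and at 48 h only the p53-null array was above untreated. The genotype differences were -0.15 ± 0.22 and -0.18 ± 0.22 (limma adjusted p = 0.612 and 0.545), and without the 48 h arrays they were 0.11 and 0.11. The TSA differences averaged over genotypes were -0.37 ± 0.27 and -0.68 ± 0.34 (limma adjusted p = 0.574 and 0.404).

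Xbp1, whose mRNA is spliced by the sensor IRE1 to give the active factor, had small differences with TSA. Its brightest probe set gave 985.1, 738.8 and 914.7 on the p53-null arrays. It gave 1089.3, 1057.9 and 1161.3 on the p53-Dnmt1-null arrays and 413.9 after removal. The 3 others spanned 656.9 to 988.8, 217.8 to 287.7 and 48.5 to 90.8 over the 7 arrays. The 4 TSA differences averaged over genotypes lay between -0.14 and 0.015 (limma adjusted p = 0.778 to 0.987). The genotype differences lay between 0.13 and 0.33 (limma adjusted p = 0.0863 to 0.598), all toward p53-Dnmt1-null cells. These signals do not separate spliced from unspliced mRNA.

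Over all members, limma called 2 of 20 probe sets higher in p53-Dnmt1-null cells, where 17.6% of all probe sets were called, and 4 of 20 lower, where 19.3% were. The share of members called is near that of the array as a whole in both directions, so the count says nothing particular about these genes. The remaining 14 were not called. Without the 48 h arrays, and also without the filter, 3 probe sets were called, those of Atf3, Hspa5 and the brighter of Bcat1, and 4 were without the intensity trend. The median member difference was 0.20 on the log2 scale beside 0.015 over all probe sets. At least 2-fold at all 3 times, Atf3 was higher (4.49% of all probe sets) and no member was lower (6.01%). Atf3, also among the 2 called higher by limma, passed the filter only through the p53-Dnmt1-null arrays, where it is high.

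**Figure D2:**
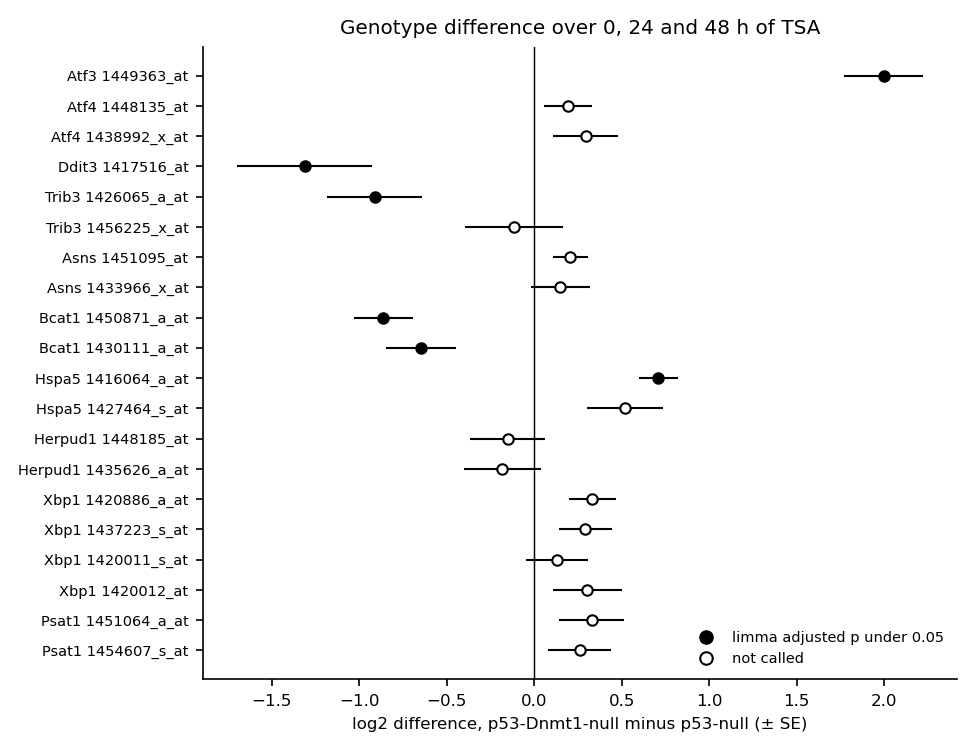
Genotype difference on the log2(signal + 11.4) scale (horizontal axis), p53-Dnmt1-null minus p53-null over 0, 24 and 48 h of TSA, for the 20 member probe sets tested; points are limma estimates, bars are 1 SE, and filled points passed an adjusted p of 0.05. Atf3 stands at 2.00 and Ddit3 at -1.31, and the 2 probe sets of Trib3 lie apart.

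For TSA averaged over genotypes, limma called 0 of the 20 member probe sets (0.0143% of all probe sets were called), while 8 of the 20 and 2052 of all 14012 had an unadjusted p under 0.05. Of the 20, 18 lay below 0, and their median was -0.41 beside 0.0074 over all probe sets. Without the 24 h arrays 3 of the 20 were called, without the 48 h arrays 1, and without the p53-Dnmt1-null 24 h array 2, from Bcat1, Psat1 and Atf4 as given above. In p53-null and p53-Dnmt1-null cells taken alone, limma also called 0 of 20 (0% of all in each). An unadjusted limma p under 0.05 was found for 4 of 20 in each, and for 1206 and 1136 of all 14012. The member medians were -0.38 and -0.38, beside 0.031 and -0.032 over all probe sets. For the difference of the response between genotypes limma called 0 of 20 (0% of all). There 0 of 20 were under an unadjusted p of 0.05, while 480 of all 14012 were. The summed signal of 12 cell cycle markers was lower under TSA as well: it was 6618.3, 3468.2 and 2488.6 on the p53-null arrays and 11170.6, 3733.6 and 7826.5 on the others. Its part in these differences was not tested.

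By size, with no replicate check, 2 of 20 probe sets were at least 2-fold below untreated at 24 h and at 48 h in p53-null cells, both of Bcat1 (1.03% of all probe sets). In p53-Dnmt1-null cells 3 were, both of Bcat1 and the brighter of Trib3 (0.378%), but 0 were with the offset at the pooled median. Both times share the untreated array. At 24 h alone, 4 of 20 were 2-fold lower in p53-null cells (1.86%) and 5 in p53-Dnmt1-null cells (5.3%), from Bcat1, Herpud1, Trib3 and, in p53-Dnmt1-null cells, Atf4. From 24 h to 48 h in p53-null cells, 4 of 20 read at least 2-fold higher, Ddit3, both of Trib3 and 1 of Herpud1 (1.52% of all), and 1 of Psat1 read 2-fold lower (1.89%). Over the same interval in p53-Dnmt1-null cells, 0 of 20 were 2-fold higher (3.23%) and 0 lower (2.28%). In p53-null cells Ddit3, Trib3 and Herpud1 thus parted from Bcat1, Asns and Psat1 after 24 h, on single arrays.

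**Figure D3:**
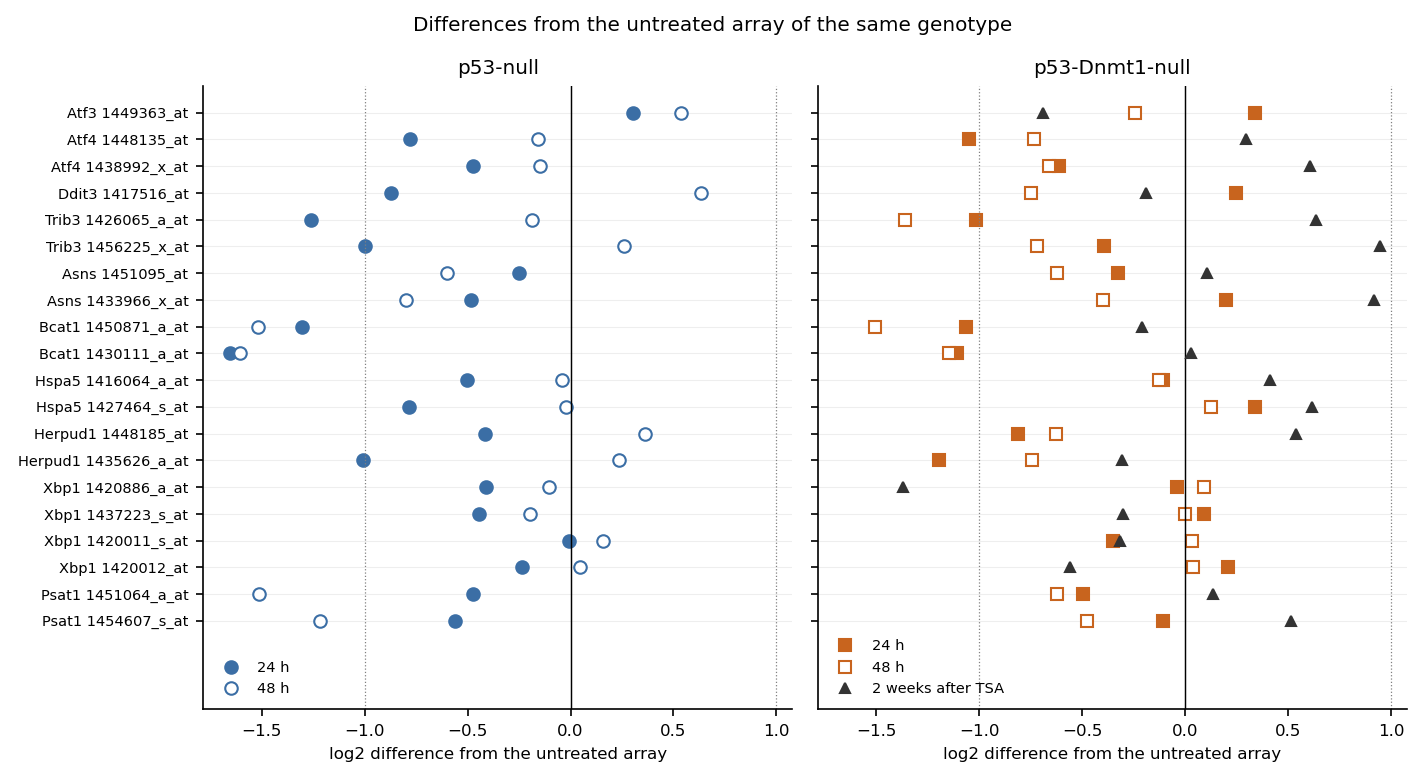
Difference on the log2(signal + 11.4) scale (horizontal axes) from the untreated array of the same genotype for the 20 member probe sets tested, at 24 h and 48 h of TSA in p53-null (left) and p53-Dnmt1-null cells (right) and 2 weeks after TSA; each point is 1 array minus 1 array and dotted lines mark 2-fold. Both Bcat1 probe sets lie beyond the lower 2-fold line on all 4 TSA arrays, and Ddit3 in p53-null cells moves from -0.87 at 24 h to 0.64 at 48 h.

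After TSA removal most members of p53-Dnmt1-null cells read higher than under TSA and near or above untreated. Against untreated, limma called 0 of 20 (0.0143% of all probe sets). An unadjusted limma p under 0.05 was found for 2 of 20, of Xbp1 and Asns, and for 2630 of all 14012. The array read higher than untreated for 12 probe sets (46.3% of all) and lower for 8 (53.6%), none 2-fold higher (6.73%) and 1 of Xbp1 2-fold lower (8.44%). That probe set differed by -1.37 ± 0.30 on the log2 scale (limma adjusted p = 0.112), while the other 3 of Xbp1 differed by -0.30, -0.32 and -0.56. The dimmer Asns probe set differed by 0.92 ± 0.37 (limma adjusted p = 0.238) and the brighter by 0.10 ± 0.27.

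Against both TSA arrays, 6 of 20 were at least 2-fold higher after removal (7.22% of all probe sets): both of Atf4, both of Trib3, 1 of Bcat1 and 1 of Herpud1. The brightest Xbp1 probe set was 2-fold lower than both (8.66% of all). The brighter Trib3 probe set stood at 3.29 times its 24 h signal and 4.26 times its 48 h signal. Bcat1 stood at 0.86 and 1.02 times its untreated signal. Ddit3 stood at 0.87 times untreated, 0.73 times its 24 h signal and 1.52 times its 48 h signal. Atf3 stood below all of these arrays, at 0.59, 0.46 and 0.71 times in the same order. These comparisons all rest on 1 array, on which the summed signal of the cell cycle markers was also the highest of the 7, at 12508.5. Its 18S control at the 3' end was the lowest, at 93.6. The actin control at that end was the highest, at 7904.8 against 4822.5 to 5661.0 elsewhere. So was that of Gapdh, at 6307.3 against 2885.3 to 4693.2. The part of the controls in these differences was not tested. The sources used here do not give the time the cells of this array had spent in TSA.

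**Figure D4:**
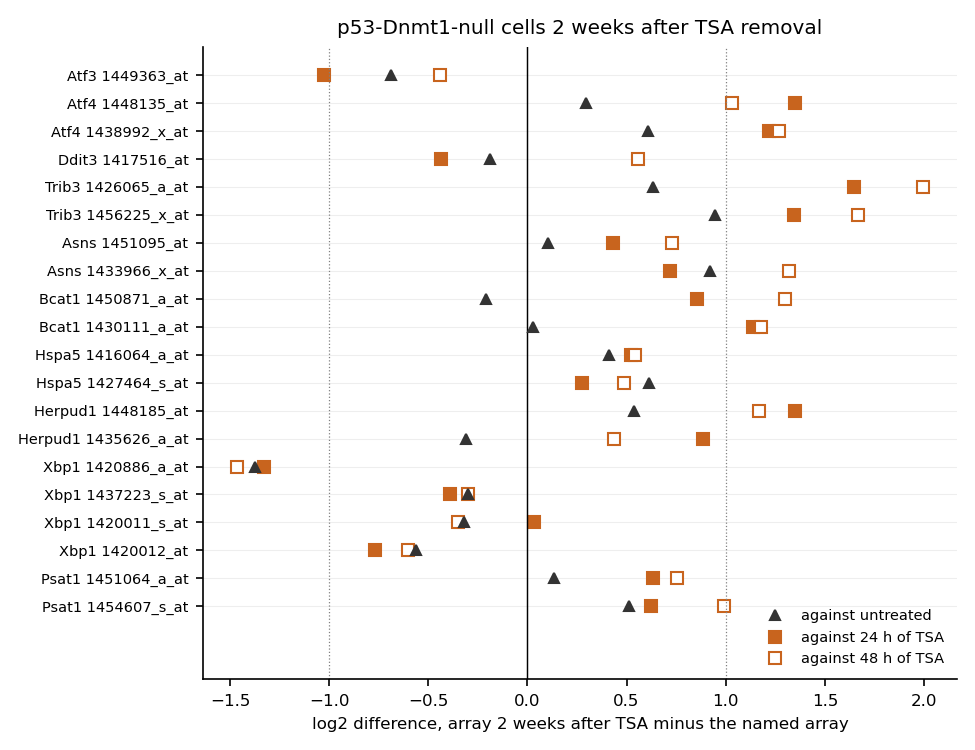
Difference on the log2(signal + 11.4) scale (horizontal axis) between the p53-Dnmt1-null array 2 weeks after TSA and the untreated (triangles), 24 h (filled squares) and 48 h (open squares) arrays of that genotype, for the 20 member probe sets tested; dotted lines mark 2-fold. Trib3 and Atf4 lie to the right of the 2-fold line against both TSA arrays, and the brightest Xbp1 probe set lies at -1.37 against untreated.

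The other genes of these pathways were read with 1 probe set per gene. Of 31 tested ATF4 and amino acid response targets, 28 lay below 0 with TSA averaged over genotypes, with a median of -0.44, and of 18 cytosolic aminoacyl tRNA synthetases, which charge tRNAs, all 18 did, with a median of -0.38. The ER groups did not show this: 25 ER chaperones and folding enzymes had 14 above and 11 below 0 (median 0.011), 29 degradation and translocation genes 15 above and 14 below (median 0.0091), and 15 stress sensors and eIF2 pathway genes 6 above and 9 below (median -0.027). The median over all probe sets was 0.0074. In each of these 5 lists limma called 0 genes for TSA, where 0.0143% of all probe sets were called. The differences between the lists were not tested. At least 2-fold below untreated at 24 h and at 48 h in p53-null cells (1.03% of all probe sets) were 3 of the 31 ATF4 targets: Shmt2 and Psph, enzymes of serine and glycine metabolism, and the glutamine transporter Slc1a5. Their mean log2 differences were -1.42, -1.31 and -1.39. In p53-Dnmt1-null cells 0 of the 31 were (0.378% of all). From 24 h to 48 h, 2 of the 31 were at least 2-fold higher in p53-null cells (1.52% of all), Atf5 and the glutathione-degrading Chac1, and 1 in p53-Dnmt1-null cells (3.23%), Nupr1. On the p53-null arrays Atf5 read 1297.9, 452 and 1235 at 0, 24 and 48 h, and Chac1 read 411, 224.5 and 509.3.

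**Figure D5:**
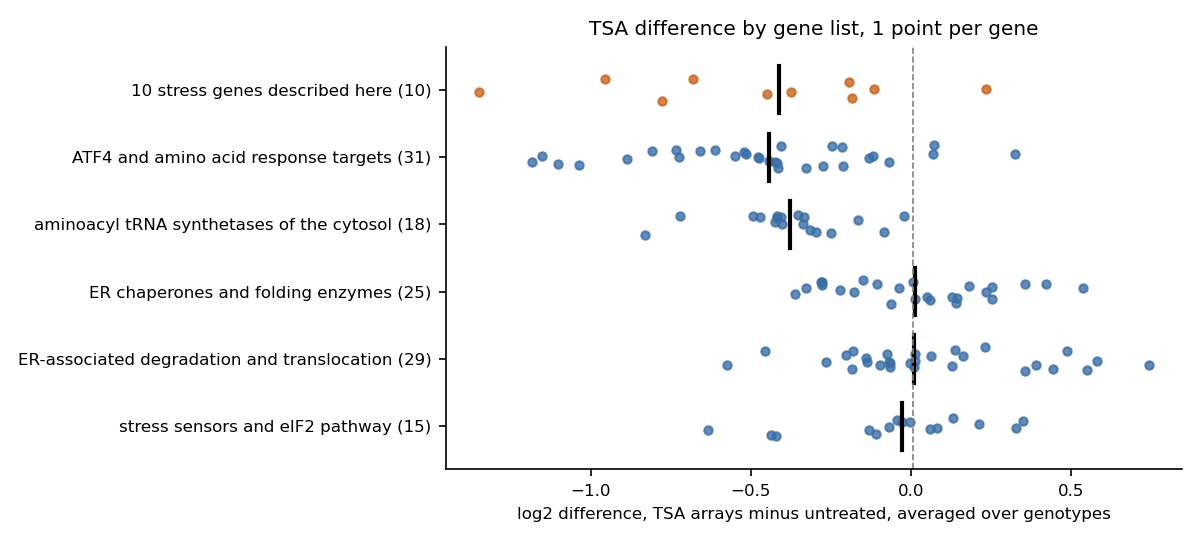
TSA difference averaged over genotypes on the log2(signal + 11.4) scale (horizontal axis) for the 10 stress genes (orange, brightest probe set of each) and 5 lists of related genes (blue), 1 point per gene, with the number of genes in brackets. Black bars are list medians and the dashed line is the median of all probe sets, 0.0074; the ATF4 targets and synthetases have medians of -0.44 and -0.38, and the 2 lists of ER genes 0.011 and 0.0091.

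Between genotypes the same lists went in both directions. Of the 31 ATF4 targets limma called 6 higher and 7 lower in p53-Dnmt1-null cells, beside 17.6% and 19.3% of all probe sets. The arginine transporter Slc7a3 differed by -2.53 ± 0.19 on the log2 scale (limma adjusted p = 2.65e-05). It passed the filter only through the p53-null arrays, as did another of the 7 called lower. Nupr1, Atf5 and Pck2 differed by -1.69, -1.37 and -1.13. Of the 18 synthetases 5 were higher and 0 lower, among them Kars at 1.00 ± 0.16 and Farsa at 0.93 ± 0.18. Of the 25 chaperones and folding enzymes 6 were higher and 6 lower: Sdf2l1, a partner of ER chaperones, differed by 2.04 ± 0.19 (limma adjusted p = 7.81e-05), and the disulfide isomerase Pdia5 by -1.68 ± 0.18. Of the 29 degradation and translocation genes 2 were higher and 7 lower, with the lectins Erlec1 and Os9 at -1.29 and -0.89. Of the 15 sensors and eIF2 pathway genes 3 were higher and 2 lower, with Trib1 at 1.33 and Trib2 at -1.55, both relatives of Trib3. Trib1 passed the filter only through p53-Dnmt1-null arrays.

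After TSA removal some genes of each list were past 2-fold on the single array, and differences between the lists were not tested. At least 2-fold above both TSA arrays (7.22% of all probe sets) were 3 of the 25 chaperones and folding enzymes: Hsp90b1 read 953.3 against 261.8 and 401.5, Dnajc3 313.8 against 110.7 and 134.9, and Pdia4 557.9 against 260.2 and 210.8. None of the 25 was 2-fold below both, though Dnajb9 was 2-fold below the 48 h array. Of the 29 degradation and translocation genes 0 were 2-fold above and 4 below (8.66% of all), Wfs1, Derl3, Os9 and Syvn1; the ubiquitin ligase Syvn1 read 122.2 against 356.3 and 352.8. Among the ATF4 targets 6 of 31 were 2-fold above and 0 below, including Mthfd2, a mitochondrial enzyme of one-carbon metabolism, at 2226.3 against 486.3 and 754.5. Of the synthetases Eprs and Hars were above, by 1.46 and 1.31 on the log2 scale. Of the 15 stress sensors and eIF2 pathway genes 0 were 2-fold above and 1 below, Creb3, at 501.1 against 1381.9 and 1265.5.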

How the data were processed

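Per the labels' protocols, TriZol was used to purify total RNA, and labelling followed Affymetrix. The deposited values are linear intensity signals, 1 per probe set and array, which the authors computed with MAS5 per the submitters' processing notes. The sources used here give neither its version nor its scaling target. Every array had the same 2% trimmed mean, 150.1 after rounding. Probe sets were named through the platform annotation, with symbols updated through Entrez identifiers. Signals were analysed as log2(signal + 11.4), the offset being the pooled 25th percentile. This scale understates the change of dim genes. After 64 control probe sets were left out, 14012 of 22626 probe sets passed the filter, a signal above the pooled median of 45.6 on at least 1 array.

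Models were fitted in limma 3.58.1 (R 4.3.3), with moderated variances that follow the mean signal, and p-values were adjusted by Benjamini-Hochberg over all probe sets tested, at 0.05. They were tested on simulated data. The genotype model was additive over 6 arrays (genotype and time, 2 residual degrees of freedom). TSA averaged over genotypes pooled 24 h and 48 h over 7 arrays (3 residual degrees of freedom). The response per genotype, its difference and the after-removal contrast came from a 5-group model (2 residual degrees of freedom), which takes the spread of a lone array from the pairs at 24 h and 48 h. With 1 array per group the p-values measure the spread between these arrays, which may be technical, and their number limits the precision. In the TSA models this spread includes any change from 24 h to 48 h. In the genotype model it includes any change of the genotype difference with time. The 3 times stood in for replicates of a genotype. An effect of Dnmt1 loss therefore cannot be told apart from any other difference between the cultures of the 2 genotypes. The members and lists were chosen with earlier results of these data known. All member probe sets are described. From each list up to 4 genes with the largest difference among those called by limma were named, or, where none was called, among those at least 2-fold different. A list gene was read through its probe set of highest mean log2 signal. Of the marker lists, limma called 1 of 14 fibroblast markers higher and 11 lower in p53-Dnmt1-null cells, 12 of 12 tested epithelial and mesothelial markers higher, 3 of 4 tested macrophage markers higher, 0 of 2 tested endothelial markers either way, and 6 of 12 cell cycle markers higher, beside 17.6% of all probe sets higher and 19.3% lower. Most of the epithelial and mesothelial markers, and the macrophage marker Itgb2, passed the filter only through p53-Dnmt1-null arrays, where they are high. The fibroblast markers Postn and Lum passed it only through p53-null arrays, where they are high. The counts of these lists are therefore a description. Promoter sequences and their coordinates are from RefSeq (GRCm38.p6). Alternatives changed the offset, the filter, the normalization, the trend, the probe set per gene and the arrays included. Leaving out the p53-Dnmt1-null 24 h array was added after the data were seen.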

Additional observations from a re-analysis of the deposited data

How the results depend on the processing

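The genotype count of 6 called probe sets became 3 without the filter, 3 without the 48 h arrays and 4 without the intensity trend (Ddit3 and Trib3 lost). For TSA averaged over genotypes the count of 0 became 3 without the 24 h arrays (both of Bcat1 and Psat1), 1 without the 48 h arrays (Atf4) and 2 without the p53-Dnmt1-null 24 h array (both of Bcat1). By size, the 3 probe sets lower in p53-Dnmt1-null cells became 0 with the offset at the pooled median, the 2 lower in p53-null cells became 1, and the 6 higher after TSA removal became 3, with 1 probe set per gene. Signs reversed only for small differences that passed no test. Without the 48 h arrays the genotype difference was 0.31 for the second Trib3 probe set and 0.11 and 0.11 for Herpud1, and without the 24 h arrays, or the p53-Dnmt1-null one alone, it was -0.012 for the dimmer Asns probe set. TSA averaged over genotypes gave 0.053 for the second Hspa5 and 0.095 for the third Xbp1 probe set without the 24 h arrays, 0.056 for that Xbp1 probe set without the p53-Dnmt1-null 24 h array, and -0.027 (quantile normalization), -0.013 (without the 48 h arrays) and -0.038 (without that array) for the fourth. Without that array TSA in p53-Dnmt1-null cells gave -0.24 for Atf3 and 0.033 and -0.0020 for Xbp1. Quantile normalization gave -0.018 for Asns after removal. The causes were not tested. No paired analysis was possible because each group held 1 array and no replicate numbers are shared; the genotype model compares the genotypes within matched times. The 5-group model was not run without the 24 h or 48 h arrays, which leave it no residual degrees of freedom.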

Other observations

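Stress genes outside the ER and amino acid arms also differed between genotypes. Of 14 cytosolic heat shock genes limma called 7 higher and 2 lower in p53-Dnmt1-null cells, beside 17.6% and 19.3% of all probe sets. The small heat shock protein Hspb1 read 900.7, 2081.7 and 989.8 at 0, 24 and 48 h of TSA on the p53-null arrays and 3690.7, 6365 and 5938.8 on the p53-Dnmt1-null arrays, a log2 difference of 2.07 ± 0.16 (limma adjusted p = 3.13e-05). The lens crystallin and small chaperone Cryab differed by 0.96 ± 0.22 and Hsp90aa1 by 0.84 ± 0.18. With TSA averaged over genotypes limma called 0 of the 14 (0.0143% of all probe sets), and their median was -0.040.

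Of 14 genes of the NRF2 response to oxidants, limma called 5 higher in p53-Dnmt1-null cells and 0 lower, beside the same shares. Glutathione reductase, Gsr, read 216.2, 166.3 and 102.3 on the p53-null arrays and 634.9, 695.7 and 570.4 on the p53-Dnmt1-null arrays, a log2 difference of 1.95 ± 0.20 (limma adjusted p = 0.000158). On the array 2 weeks after TSA, 2 of the 14 were at least 2-fold above untreated p53-Dnmt1-null cells (6.73% of all probe sets). Gclc read 409.5 against 160.3 and Cat 238.5 against 87.2. At least 2-fold below was 1 (8.44%), heme oxygenase, Hmox1, at 93.6 against 298.3. These readings have no replicate check. With TSA averaged over genotypes limma called 0 of the 14 genes (0.0143% of all probe sets), with a median of -0.17.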
